A study of Mus musculus with 3 samples.

Results

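The genes described here encode 10 proteins that neutrophils store in their granules, out of 32285 features counted. They were matched by symbol to the feature names of the deposited matrices, and all 10 were found, each on 1 feature. C57BL6 MYC-ON mice, 18 weeks of age, gave the liver tumours, which were dissociated and sorted by flow cytometry for live cells carrying CD45, the surface protein of white blood cells. The groups were tumours treated with DU101, tumours treated with DU102 and control tumours, with 1 droplet-based single-cell library (10x Genomics 3' v3) each, all labelled replicate 1. The control data carry the name DMSO beside the label CONTROL. The sources used here do not say what either agent is, or at what dose or for how long it was given. Nor do they say what control animals received beyond that name, which promoter drives MYC, or how many animals of which sex were pooled. Since each group is a single library, differences have no replicate check: values carry exact 95% intervals of counting error only, and no p-value is given.

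Neutrophils fill their granules in order as they mature in the bone marrow. Primary (azurophil) granules form at the promyelocyte stage and hold myeloperoxidase (Mpo) and the serine proteases neutrophil elastase (Elane), proteinase 3 (Prtn3) and cathepsin G (Ctsg). Secondary (specific) granules follow at the myelocyte stage with the cathelicidin Camp, neutrophilic granule protein (Ngp), the iron-binding lactoferrin (Ltf) and lipocalin 2 (Lcn2), which binds bacterial iron carriers, and tertiary (gelatinase) granules come later with the collagenase Mmp8 and the gelatinase Mmp9. RNA for each protein is made mainly while its granule is being filled and falls afterwards, although the protein stays, so that the set of granule RNAs in a cell is a guide to how far it has matured. C/EBP proteins (Cebpa early, Cebpe later), Gfi1 and PU.1 are transcription factors of this programme.

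In the GENCODE annotation of mm10 the primary granule genes lie at chr10:79886247-79888215 (Elane, plus strand), chr10:79874476-79883174 (Prtn3, plus strand, 3072 bases from Elane), chr11:87793581-87804413 (Mpo, plus strand) and chr14:56099881-56102574 (Ctsg, minus strand). Camp (chr9:109847379-109849617, minus strand), Ngp (chr9:110419747-110423012, plus strand) and Ltf (chr9:111019271-111042767, plus strand) lie on the same chromosome, as does Mmp8 (chr9:7558456-7568485, plus strand). Lcn2 lies at chr2:32384633-32388252 on the minus strand and Mmp9 at chr2:164940780-164955850 on the plus strand. All 10 are protein-coding genes, and the spans are those of the whole genes, exons and introns together.

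The promoters of 9 of the 10 genes were matched in a RefSeq table of GRCm38.p6, all but Mmp9. Those of Elane and Prtn3, used to mark early cells, and of Ngp, Ltf and Camp, used to mark later cells, are shown because these sums of UMIs define the stages below. Each line gives the 250 bases before the RefSeq start, 5′ to 3′ on the gene's strand. Capitals mark matches to a C/EBP motif (TTNNGNAA) or a PU.1 core (GAGGAA), on either strand.
Elane, GRCm38.p6 chr10:79886062-79886311, plus strand: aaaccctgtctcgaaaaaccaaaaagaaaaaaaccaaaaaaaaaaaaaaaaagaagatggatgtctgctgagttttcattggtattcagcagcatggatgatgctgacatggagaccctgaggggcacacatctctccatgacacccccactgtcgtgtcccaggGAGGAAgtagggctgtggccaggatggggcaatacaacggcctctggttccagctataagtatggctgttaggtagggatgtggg
Prtn3, GRCm38.p6 chr10:79879417-79879666, plus strand: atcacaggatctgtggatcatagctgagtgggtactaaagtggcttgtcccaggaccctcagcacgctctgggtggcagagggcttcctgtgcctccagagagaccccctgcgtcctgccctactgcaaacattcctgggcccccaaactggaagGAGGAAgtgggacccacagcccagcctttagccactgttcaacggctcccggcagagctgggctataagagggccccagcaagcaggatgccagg
Ngp, GRCm38.p6 chr9:110419558-110419807, plus strand: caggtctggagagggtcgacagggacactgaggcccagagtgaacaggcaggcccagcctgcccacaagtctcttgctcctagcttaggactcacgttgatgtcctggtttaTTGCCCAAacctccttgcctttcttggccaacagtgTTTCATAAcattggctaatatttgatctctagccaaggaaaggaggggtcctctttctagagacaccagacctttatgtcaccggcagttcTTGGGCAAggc
Ltf, GRCm38.p6 chr9:111019042-111019291, plus strand: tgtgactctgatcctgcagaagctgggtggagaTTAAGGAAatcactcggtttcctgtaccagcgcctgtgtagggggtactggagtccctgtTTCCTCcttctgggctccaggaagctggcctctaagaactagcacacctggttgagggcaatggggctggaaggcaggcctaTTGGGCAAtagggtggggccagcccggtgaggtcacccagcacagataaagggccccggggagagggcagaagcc
Camp, GRCm38.p6 chr9:109849457-109849706, minus strand: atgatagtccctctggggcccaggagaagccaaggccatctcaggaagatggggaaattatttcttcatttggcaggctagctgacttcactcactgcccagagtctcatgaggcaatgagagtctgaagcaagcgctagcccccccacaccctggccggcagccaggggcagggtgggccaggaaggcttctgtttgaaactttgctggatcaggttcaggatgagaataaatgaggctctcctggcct
The PU.1 core occurred in the promoters of all 4 primary granule genes, at bases -85 (Elane), -95 (Prtn3), -247 and -224 (Mpo) and -216 (Ctsg) counted from the start, and in those of Ltf, Lcn2 and Mmp8, so in 7 of 9. Of 32851 promoters of 300 bases (250 before and 50 after the start), 28.3% held it. The C/EBP motif had 3 matches in Ngp, 2 in Ltf, 2 in Mmp8 and 1 in Lcn2 and none in the primary granule genes or Camp, so 4 of 9 promoters, against 40.7% of all. No match of either motif overlapped a match of the other in these promoters. A match describes the letters only.

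The libraries held 15686 barcodes (DU101), 13650 (DU102) and 12639 (control), with 106604935, 96817875 and 91013198 UMIs (counted RNA molecules) in the same order. After filtering, 13799 DU101, 11461 DU102 and 10154 control cells remained, with medians of 4832, 5091 and 6336 UMIs. Any pair of libraries shared 37 to 57 barcodes, and at most 4 in the neutrophil lineage. Xist, the RNA that coats the silenced X chromosome in females, was found in 0.138% of DU101 and 0.0698% of DU102 cells, against 56.0% of control cells, and RNA of 4 Y-linked genes in 46.8%, 52.5% and 21.0%. The control library therefore holds cells of both sexes, the treated libraries nearly none with Xist. Sex and treatment cannot be told apart in comparisons with control. Beside some of them a value for Y-positive, Xist-negative control cells is given. Unless the same filter is named for treated cells, that value sets filtered control cells against all treated cells. Detection of Y-linked RNA favours deep cells, so such a value does not separate sex from treatment either.

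Cells were clustered with the 10 granule genes kept out, and 4 of 31 clusters formed the neutrophil lineage. A precursor-like cluster had Fcnb, Cebpe and Ms4a3 among its 10 leading genes, and 3 neutrophil-like clusters had Chil3, Anxa1 and Cd177, Retnlg and Cxcr2, and Cxcl2 and Il1b. All 4 carried S100a9, an abundant neutrophil RNA, among their leading genes. The lineage made up 2042 cells in DU101 (14.8% of those kept) and 2557 in DU102 (22.3%), against 1342 in control (13.2%). The 10 genes took up 1.51% of all UMIs of kept cells in DU101 and 2.35% in DU102, against 0.441% in control.

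Lineage cells were then sorted by raw UMIs into 4 stages. A cell passed the primary gate with at least 10 UMIs of Elane, Mpo and Prtn3 together, and the secondary gate with at least 10 of Ngp, Camp and Ltf. In both treated tumours most of the lineage passed a gate, and in control most did not. Cells past either gate were 62.3% of the lineage in DU101 (60.1 to 64.4%; 1272 cells) and 56.5% in DU102 (54.6 to 58.4%; 1445 cells), against 20.2% in control (18.1 to 22.4%; 271 cells). The share was 3.08 times that of control in DU101 (2.70 to 3.53) and 2.80 times in DU102 (2.46 to 3.20), and DU102 over DU101 it was 0.907 (0.841 to 0.979). All shares of treated lineages past a gate lay above control by more than counting error, and DU101 and DU102 lay near each other.

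Cells past the primary gate alone, the earliest, were rare: 44 in DU101 (2.15%), 51 in DU102 (1.99%) and 10 in control (0.745%). Cells past both gates numbered 276 in DU101 (13.5%) and 284 in DU102 (11.1%), against 47 in control (3.50%). Cells past the secondary gate alone were 952 (46.6%) in DU101 and 1110 (43.4%) in DU102, against 214 (15.9%) in control. Each gated stage was thus more frequent in both treated lineages, by 2.89 (1.43 to 6.44), 3.86 (2.82 to 5.38) and 2.92 times (2.52 to 3.41) in DU101 and by 2.68 (1.34 to 5.91), 3.17 (2.32 to 4.42) and 2.72 times (2.35 to 3.17) in DU102. Past neither gate were 770 DU101 cells (37.7%) and 1112 DU102 cells (43.5%), against 1071 control cells (79.8%). Set against all kept cells, gated lineage cells were 9.22% in DU101 and 12.6% in DU102, against 2.67% in control, and ungated ones 5.58% and 9.70%, against 10.5%. On that scale the ungated cells of DU102 were within counting error of control (ratio 0.920; 0.845 to 1.001), while those of DU101 were fewer (0.529; 0.482 to 0.581).

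**Figure D1:**
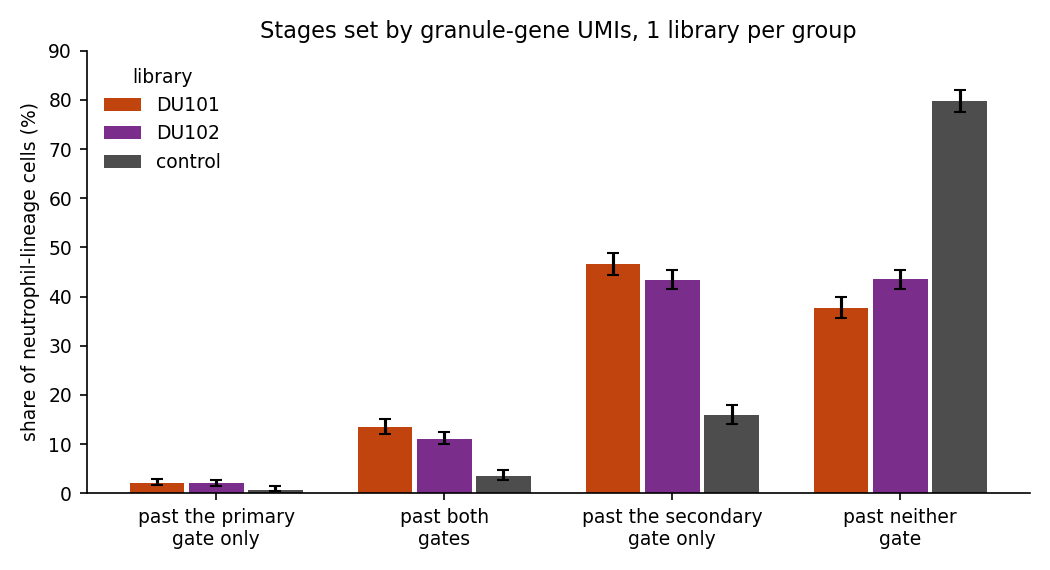
Share of neutrophil-lineage cells (%) in each stage, with DU101, DU102 and control bars side by side and exact binomial 95% intervals. Past both gates and past the secondary gate alone, the DU101 and DU102 bars (13.5 and 11.1%, 46.6 and 43.4%) stand above the control bars (3.50 and 15.9%), and past neither gate control stands highest, at 79.8%.

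Few cells lay close to the cut of the primary gate. In the bin of 5 to 9 UMIs of Elane, Mpo and Prtn3, just outside it, there were 56 DU101, 102 DU102 and 13 control cells, and in the bin of 10 to 19, just inside, 34, 37 and 6. At 500 UMIs or more there were 150 DU101, 171 DU102 and 30 control cells. The secondary gate cut a broader slope, with 84 DU101, 159 DU102 and 31 control cells at 5 to 9 UMIs of Ngp, Camp and Ltf and 94, 86 and 28 at 10 to 19. Still, 31.9% of DU101 and 33.6% of DU102 lineage cells held 500 or more such UMIs, against 10.7% of control cells.

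**Figure D2:**
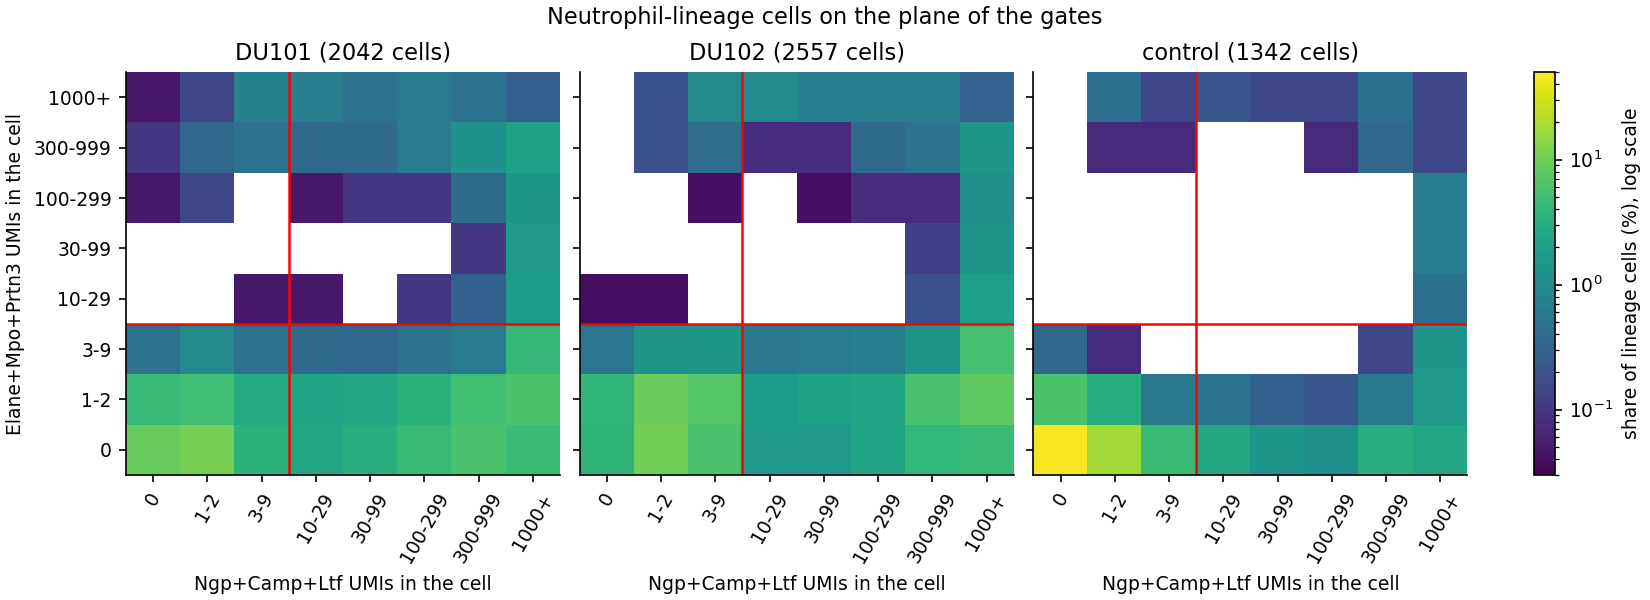
Neutrophil-lineage cells of DU101, DU102 and control on the plane of summed Ngp+Camp+Ltf UMIs (x) and summed Elane+Mpo+Prtn3 UMIs (y) per cell, coloured by share of the library's lineage cells (%) on a log scale, with white for no cell and red lines at the gates of 10 UMIs. Most of the 1071 ungated control cells lie in the lower left corner, while DU101 and DU102 also fill the lower right, where 952 and 1110 cells had passed the secondary gate alone.

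Sex and depth moved with the stages. Of the control cells past either gate, 63.5% had Y-linked RNA and 18.8% Xist, against 28.5% and 11.7% of control cells past neither. Among Y-positive, Xist-negative lineage cells of control, 146 of 420 passed a gate (34.8%; 30.2 to 39.5%). With that same filter the share was 73.0% in DU101 (70.0 to 75.8%) and 68.1% in DU102 (65.5 to 70.6%), so it was again higher in both. Detection of Y-linked RNA favours deep cells, and gated cells were the deeper ones: past both gates the median was 25540.5 UMIs in DU101, 32170.5 in DU102 and 32784 in control, and past neither 1661, 1982 and 2495.

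The genes that set the gates (Elane, Mpo, Prtn3, Ngp, Camp and Ltf) differ between stages by construction, and their levels are a description. Ctsg, Lcn2, Mmp8 and Mmp9 did not enter the gates. Ctsg averaged 298 UMIs per cell in DU101, 267 in DU102 and 378 in control past the primary gate alone. Past both gates it was at 74.5, 86.0 and 74.9 UMIs per cell, and past the secondary gate alone at 0.216, 0.214 and 0.0701. Within the lineage, cathepsin G RNA was therefore high where the primary gate was passed, in each library.

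Ctsg and Mpo were missing from some cells past both gates. At least 1 Ctsg UMI was found in 79.3% of these cells in DU101, 79.9% in DU102 and 70.2% in control, and at least 1 Mpo UMI in 84.4%, 87.7% and 78.7%. Elane was found in 97.8%, 99.6% and 97.9%, and Prtn3 in all of them. In T-like cells, which do not make these proteins, Ctsg was found in 15.7% (DU101), 17.4% (DU102) and 2.38% (control) of cells, at median depths of 3860, 4551 and 5175 UMIs. Elane had 380 UMIs per cell past the primary gate alone in DU101, 457 in DU102 and 671 in control, and 242, 301 and 310.4 past both gates. Mpo stood at 195, 282 and 338 UMIs per cell past the primary gate alone and at 76.0, 113 and 94.2 past both. Both genes were lower past both gates than past the primary gate alone in each library.

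The secondary granule genes were low in cells past the primary gate alone and abundant once the secondary gate was passed. Past the primary gate alone, Lcn2, which no gate used, was at 3.57 UMIs per cell in DU101, 4.02 in DU102 and 7.10 in control. It was at 139, 195 and 199 past both gates and at 134, 180 and 149 past the secondary gate alone. Past neither gate 2.34, 4.52 and 4.03 remained. Lcn2 therefore rose with Camp and Ngp at the secondary gate in each library, although it took no part in the sorting. After that Lcn2 and Camp differed in degree. From both gates to the secondary gate alone, Camp fell more steeply per cell than Lcn2 in each library, as the values below show. Cells past the secondary gate alone were shallower, however, and per 1000000 UMIs both genes rose. On that scale Camp went from 26677 to 39827 in DU101, 25426 to 37773 in DU102 and 29319 to 32775 in control. Lcn2 went from 5106 to 15896, 5804 to 15769 and 5607 to 13462 in the same order. Past neither gate, Lcn2 per cell was at least 11.3 times its level in T-like cells in each library, and Camp at most 1.37 times.

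Camp had 727 UMIs per cell in DU101, 855 in DU102 and 1039 in control past both gates, and 335, 431 and 362 past the secondary gate alone. Ngp had 397, 493 and 476 past both gates and 320, 413 and 349 past the secondary gate alone. Ltf was the late member of the group: 30.2, 61.9 and 31.0 UMIs per cell past both gates and 72.9, 103 and 63.7 past the secondary gate alone. At least 1 Ltf UMI was found in 63.4% (DU101), 79.2% (DU102) and 55.3% (control) of cells past both gates, where Camp was found in all of them. As a share of all UMIs in the stage, the 10 genes together made up 6.95% past both gates in DU101, 7.02% in DU102 and 6.90% in control, and 10.4%, 10.1% and 8.53% past the secondary gate alone.

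The metalloproteases came last. Mmp8 had 0.0507 UMIs per cell past both gates in DU101 and 0.229 in DU102, and was listed at 0 in control, where a count of 0 over 47 cells allows up to 0.0638 per cell (3 counts). Past the secondary gate alone it was at 5.27 (DU101), 10.3 (DU102) and 9.94 (control) UMIs per cell, and past neither gate at 1.44, 2.01 and 1.503. Mmp9 had 0.0725, 0.275 and 0.213 UMIs per cell past both gates, 5.61, 8.87 and 7.89 past the secondary gate alone and 1.71, 2.35 and 1.91 past neither. Neither gate used these genes, and both were low past the primary gate alone, with at most 7 UMIs of either in any library.

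Cells past neither gate hold less RNA, so the metalloproteases were also set against all UMIs of the stage, as counts per 1000000 UMIs (CPM). Mmp9 stood at 871 CPM in DU101, 1033 in DU102 and 693 in control past neither gate, and at 666, 777 and 715 past the secondary gate alone. Mmp8 stood at 736, 884 and 545 CPM past neither gate and at 626, 898 and 901 past the secondary gate alone. On this scale Mmp9 was higher past neither gate than past the secondary gate alone in the treated libraries and close to it in control. Mmp8 was lower past neither gate in control, close to level in DU102 and higher in DU101. Lcn2 was at 1193, 1986 and 1461 CPM past neither gate and at 15896, 15769 and 13462 past the secondary gate alone.

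**Figure D3:**
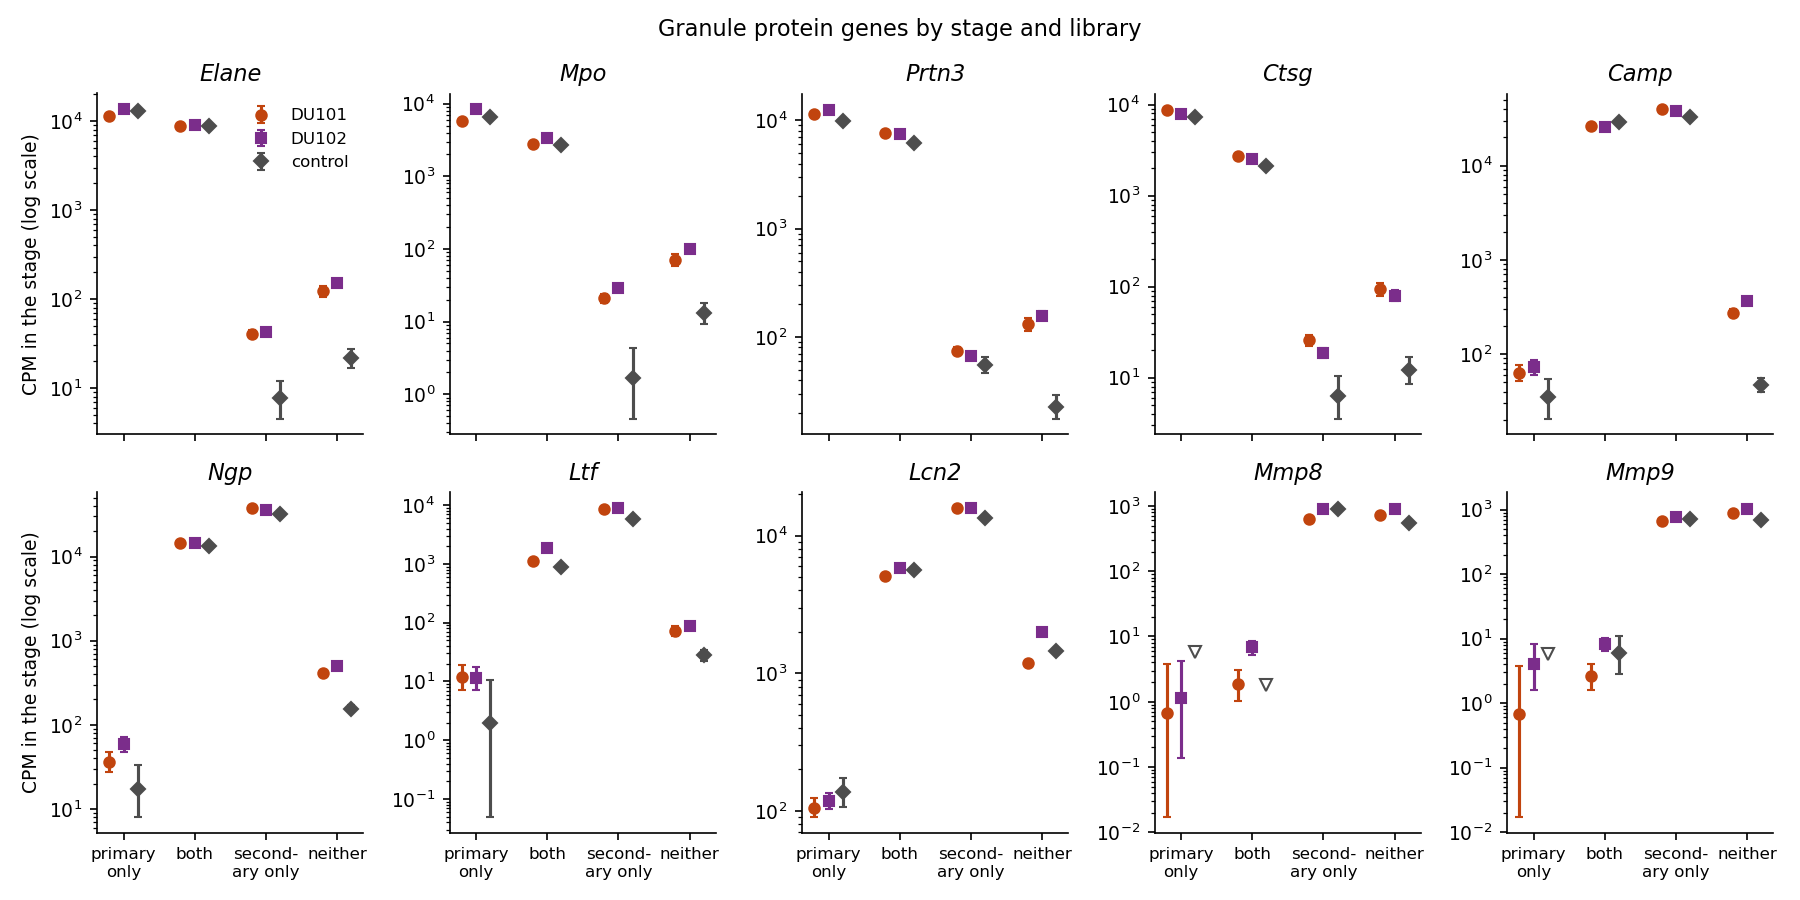
CPM of each of the 10 genes (log axes) in the 4 stages of DU101, DU102 and control, with exact Poisson 95% intervals; open triangles mark the 3-count floor where control was at 0. Elane, Mpo, Prtn3 and Ctsg peak past the primary gate alone, Camp, Ngp, Ltf and Lcn2 past the secondary gate alone, and Mmp8 and Mmp9 lie at 545 to 1033 CPM in the last 2 stages.

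Past both gates, Elane, Mpo, Prtn3, Ctsg, Camp, Ngp and Lcn2 each lay within 1.5-fold of control in both treated libraries. A gene counted as higher or lower when the ratio was 1.5-fold or beyond, its interval left out 1, and both libraries together held at least 30 UMIs. Among cells past both gates, none of the 10 was called in DU101 over control, where 3.90% of all genes measured were higher and 5.43% lower. Elane was at 8874 CPM in DU101, against 8758 in control (ratio 1.01; 0.995 to 1.03), and Camp at 26677 against 29319, a ratio of 0.910 (0.901 to 0.919). In DU102 over control 2 of 10 were higher and none lower (7.78% and 4.48% of all genes), Ltf at 1840 against 876 CPM (2.101-fold; 1.99 to 2.22) and Mmp8 with 65 UMIs against 0, at least 3.78-fold over a floor of 3 counts in the control stage. The control stage held 47 cells here, under the 50 first asked for, and was admitted after its size was known. Both contrasts share the control library.

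Past the secondary gate alone, 3 of 10 genes were higher in DU101 than in control (3.81% of all genes were) and 4 of 10 in DU102 (2.96%), and none was lower (8.87% and 13.4% of all genes were). The median log2 ratio of the 10 genes was 0.35 in DU101 and 0.25 in DU102, beside -0.10 and -0.20 over all genes. Camp, Ngp and Lcn2, the most abundant RNAs of this stage, were not among them. Camp stood at 39827 CPM in DU101 (ratio 1.22; 1.21 to 1.22) and 37773 in DU102 (1.15; 1.14 to 1.16), against 32775 in control. Within clusters of this stage Camp was at 16288 and 13760 CPM, against 9204 in control, in the Retnlg cluster. In the Anxa1 and Cd177 cluster it was at 46198 and 45773, against 46008. In the precursor-like cluster it was at 46820 and 46785, against 49296. Ngp and Lcn2 had ratios of 1.202 and 1.18 in DU101 and 1.14 and 1.17 in DU102. Ltf reached 1.498 (1.47 to 1.53) in DU101, just short of the limit, and was called in DU102, at 9025 against 5775 CPM (1.56; 1.54 to 1.59). By cluster it was at 7271 and 5900 CPM, against 3420 in control, in the Retnlg cluster. It was at 10185 and 11157, against 8381, in the Anxa1 and Cd177 cluster, and at 6978 and 8559, against 6323, in the precursor-like cluster. The part of the cluster make-up of the stage in the ratios of Camp and Ltf was not tested. Mmp8 was at 626 CPM in DU101 and 898 in DU102, against 901 in control, a ratio of 0.695 (0.660 to 0.731) in DU101 and 0.997 (0.952 to 1.04) in DU102. Within clusters its direction varied. In this stage it was at 2109 and 2714 CPM, against 2077 in control, in the Retnlg cluster. It was at 322 and 420, against 453, in the Anxa1 and Cd177 cluster. In the precursor-like cluster it was at 61.7 and 38.5, against 1.58, which rests on 1 UMI. With only Y-positive, Xist-negative control cells (111 cells, Ltf at 6101 CPM) and all treated cells, the call of Ltf in DU102 ended. Its log2 ratio was then 0.56 (0.53 to 0.60).

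The other genes called past the secondary gate alone were primary granule genes at trace levels. Elane was at 40.5 CPM in DU101 and 42.1 in DU102, against 7.62 in control, a ratio of 5.32 (3.31 to 9.09) and 5.53 (3.46 to 9.40). Mpo was at 20.8 and 29.1 CPM, against 1.69 in control, which rests on 4 UMIs, with ratios of 12.3 (4.71 to 45.7) and 17.2 (6.66 to 63.4), and Ctsg at 25.7 and 18.7 against 6.35, with ratios of 4.04 (2.40 to 7.36) and 2.94 (1.75 to 5.34). Per cell, Elane was at 0.341 (DU101), 0.481 (DU102) and 0.0841 (control) UMIs in this stage, beside 0.25, 0.416 and 0.0578 in T-like cells of the same libraries, which were shallower (medians 3860, 4551 and 5175 UMIs, against 6858.5, 10092.5 and 10113 in this stage). Over the T-like level, Elane, Mpo and Ctsg lay at 1.17 to 1.37 times in DU101, 1.01 to 1.16 in DU102 and 0.448 to 2.67 in control, where they rest on 18, 4 and 15 UMIs. The interval left out 1 for Elane in both treated libraries, Mpo in DU102 (1.01 to 1.304) and Ctsg in control (1.38 to 4.897). In the treated libraries these genes were thus at most 1.37 times the T-like level, taken here as the background. In control they rest on few UMIs. Their ratios to control are therefore not read as a difference in expression between libraries. In each library Prtn3 was farther from the T-like level than these genes, with 0.627, 0.759 and 0.612 UMIs per cell. That was 2.11 (1.90 to 2.33), 1.88 (1.71 to 2.06) and 10.8 times (8.24 to 14.2) the T-like level. Its CPM ratio to control was 1.34 (1.11 to 1.63) in DU101 and 1.199 (0.996 to 1.45) in DU102.

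Past neither gate, 7 of 10 genes were higher in DU101 than in control (8.05% of all genes were) and 8 of 10 in DU102 (5.76%), and none was lower (5.16% and 8.77%). The median log2 ratio of the 10 was 1.92 in DU101 and 2.20 in DU102, beside 0.03 and -0.07 over all genes. The 4 primary granule genes, Camp, Ngp and Ltf made up the 7, and Mmp8 joined them in DU102, at 884 against 545 CPM (1.62; 1.52 to 1.73). The ungated cells were not of 1 kind: the Retnlg cluster gave 162 of them in DU101 and 247 in DU102, against 37 in control, and nearly all others were of the Cxcl2 cluster. Within these clusters Mmp8 in DU102 was not higher, at 428 against 485 CPM in ungated Cxcl2 cells and 1942 against 1931 CPM in ungated Retnlg cells. With only Y-positive, Xist-negative control cells (274 cells, Mmp8 at 677 CPM) and all treated cells, the 7 calls stood in both libraries. That of Mmp8 in DU102 ended, at a log2 ratio of 0.38 (0.25 to 0.52). Elane was at 121 CPM in DU101 and 151 in DU102, against 21.7 in control, with ratios of 5.60 (4.19 to 7.57) and 6.98 (5.35 to 9.25). Per cell, however, Elane, Mpo, Prtn3 and Ctsg lay at 0.864 to 0.993 times the T-like level in DU101 and at 0.781 to 0.883 times in DU102, and in control their intervals held the T-like level. These levels are at or below that of T-like cells, taken here as the background, and are not read as expression. Camp lay close to it too, at 1.37 (1.22 to 1.52), 1.12 (1.04 to 1.21) and 0.9749 times (0.784 to 1.21) the T-like level in DU101, DU102 and control. Ltf was at 1.46 (1.16 to 1.81), 0.933 (0.795 to 1.09) and 2.92 times (2.00 to 4.31) the T-like level in the same order.

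Ngp was above the T-like level in ungated cells of each library. It had 0.805 UMIs per cell in DU101, 1.14 in DU102 and 0.428 in control, 2.46 (2.23 to 2.71), 1.70 (1.58 to 1.83) and 3.74 times (3.15 to 4.45) that of T-like cells. Its CPM was 411 and 501, against 155 in control, 2.65-fold (2.35 to 2.999) and 3.23-fold (2.90 to 3.61) higher. The T-like level itself was 0.328 and 0.672 UMIs per cell, against 0.114 in control, and was not taken off these ratios. The stage also mixed clusters, which are given apart below. Lcn2 and the metalloproteases were at least 11.3 times the T-like level here in each library. Lcn2 was at 0.817 times control in DU101 (0.772 to 0.863) and 1.36 times in DU102 (1.31 to 1.42). In ungated cells of the Cxcl2 cluster alone Lcn2 was at 870.3 CPM in DU101 and 1235 in DU102, against 1410.01 in control, so DU102 was below control there, and in those of the Retnlg cluster it was at 2430 and 3729, against 2621 (37 control cells).

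**Figure D4:**
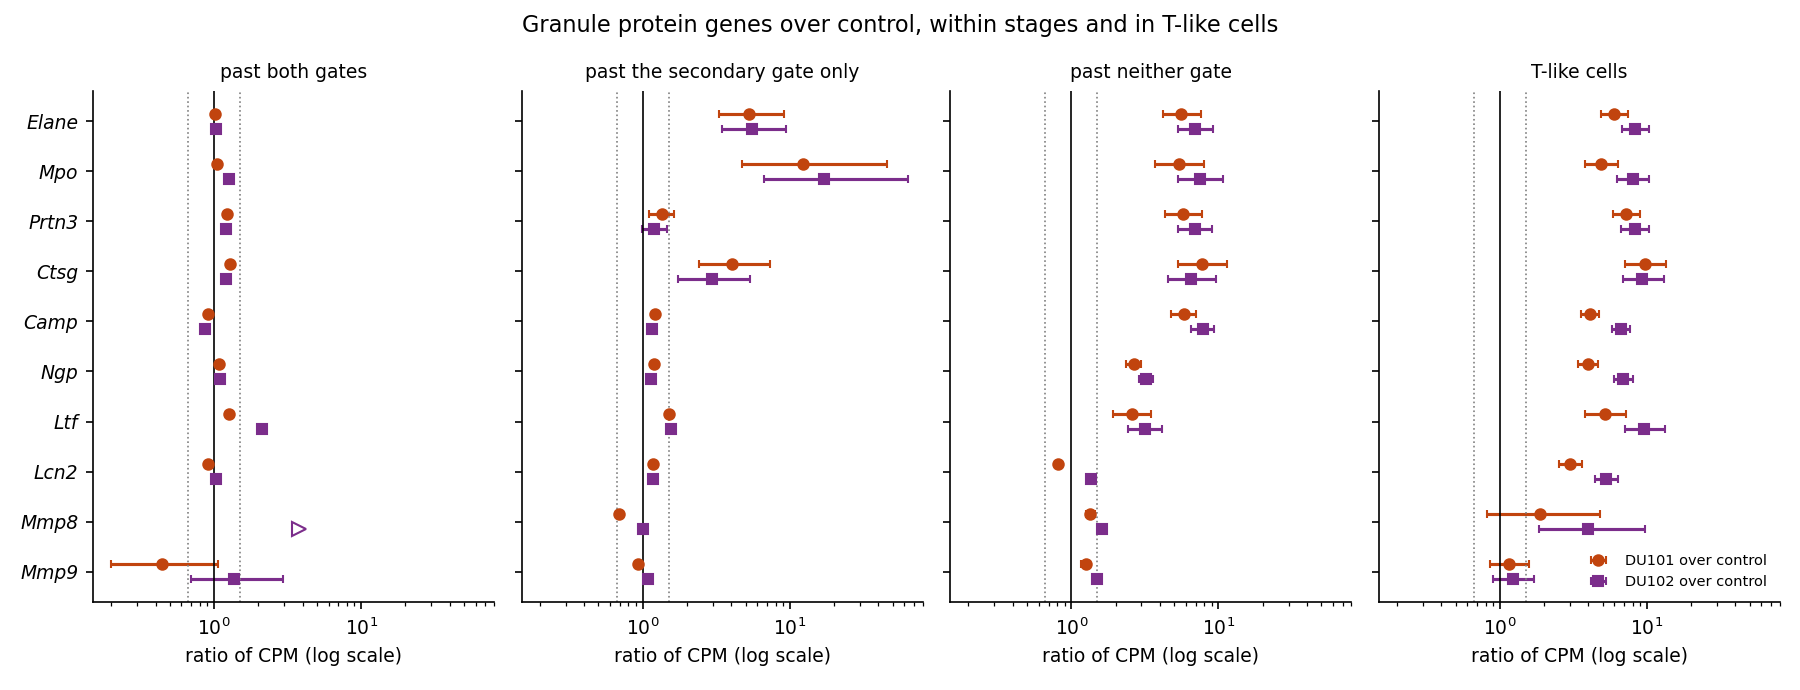
Ratio of CPM to control (log axis) for each gene, DU101 and DU102 side by side, past both gates, past the secondary gate alone, past neither gate and in T-like cells, with exact 95% intervals of counting error; the open triangle is a lower bound for Mmp8 and dotted lines stand at 1.5-fold. Past both gates most points lie close to 1 (Elane 1.01 and 1.02), while past neither gate and in T-like cells Elane lies at 5.60 to 8.34.

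Between the treated libraries 5 differences by stage reached the limit. DU102 over DU101, 1 of 10 was higher past the primary gate alone, close to the 7.94% of all genes (44 cells in DU101). This was Ngp at 59.0 against 36.4 CPM, a ratio of 1.62 (1.16 to 2.30). Ngp is a gate gene, so by construction these cells hold fewer than 10 UMIs of Ngp, Camp and Ltf. Per cell it was at 2.00 against 1.23 UMIs, beside 0.672 against 0.328 in T-like cells, and is not read as a difference in expression. Past both gates 3 of 10 were higher (6.52%), all of them late genes: Ltf at 1840 against 1108 CPM (1.66; 1.62 to 1.71), Mmp8 at 6.80 against 1.86 (3.66; 2.03 to 7.06) and Mmp9 at 8.17 against 2.66 (3.07; 1.86 to 5.30). None was past the secondary gate alone (2.23%), where the nearest was Mmp8 (1.43; 1.39 to 1.48), and 1 past neither gate (2.50%), Lcn2 at 1986 against 1193 CPM (1.67; 1.58 to 1.76). No gene was lower in any of these stages. Past both gates in DU102, 1 cell gave 32.3% of the Mmp8 UMIs and 1 cell 24.4% of the Mmp9 UMIs. In the precursor-like cluster's cells past both gates, DU102 against DU101, Ltf was at 1494 against 978 CPM. There Mmp8 was at 5.40 against 1.91, with 51.2% of the DU102 UMIs in 1 cell, and Mmp9 at 4.08 against 2.70.

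Whole clusters, which used none of the 10 genes, gave a second view, added after the data were seen. In the neutrophil-like cluster with Anxa1 and Cd177 (510 DU101, 537 DU102 and 83 control cells) none of 10 genes was called in DU101 over control (3.84% of all genes higher) and 1 in DU102 (3.76%), Mmp9 at 469 against 309 CPM (1.52; 1.37 to 1.69). In the precursor-like cluster (403, 435 and 77 cells) Elane averaged 195 UMIs per cell in DU101 and 229.7 in DU102, against 261 in control. Its control cells were deeper, with medians of 22473 (DU101), 27578 (DU102) and 28888 (control) UMIs. By CPM, 2 of 10 genes were higher there than in control in DU101 (3.47% of all genes) and 3 in DU102 (5.82%). None was lower (5.78% and 5.38%). Those higher were Mmp8 and Mmp9 in both, with Ltf in DU102. The Mmp8 ratios rest on 1 control UMI, found past the secondary gate alone. The Cxcl2 cluster held 619 DU101, 875 DU102 and 1063 control cells, nearly all past neither gate (607, 864 and 1034), with 6 genes higher and 2 lower in DU101 than in control (7.26% and 4.47% of all genes) and 5 higher and 1 lower in DU102 (5.97% and 4.52%). Those higher were Elane, Mpo, Prtn3, Ctsg and Camp in both, with Ltf in DU101. Elane was at 0.237 (DU101), 0.337 (DU102) and 0.0602 (control) UMIs per cell, beside 0.25, 0.416 and 0.0578 in T-like cells. The calls of primary granule genes there are not read as a difference in expression. Ngp was the gene lower in both, at 404 CPM in DU101 and 401 in DU102, against 686 in control (0.588; 0.533 to 0.649, and 0.585; 0.537 to 0.637). The cluster held 29 control cells past the secondary gate, against 12 in DU101 and 9 in DU102, and 1 control cell gave 22.2% of its Ngp UMIs. In the cluster's ungated cells Ngp was higher in DU101 (232 CPM) and DU102 (363) than in control (127), the direction found over all ungated cells. Per cell that was 0.456, 0.742 and 0.348 UMIs, beside 0.328, 0.672 and 0.114 in T-like cells. Control thus lay farthest above the T-like level. In ungated Retnlg cells Ngp was at 1102 and 818 CPM, against 795 in control, and at 2.12, 2.52 and 2.65 UMIs per cell. The Retnlg cluster, which straddled the secondary gate, held 510, 710 and 119 cells. Camp was at 53.2, 63.4 and 50.5 and Mmp8 at 8.11, 14.5 and 13.4 UMIs per cell in it. There 6 of 10 genes were higher in DU101 than in control (7.15% of all genes) and 5 in DU102 (4.07%). None was lower (5.44% and 12.3%), and its control cells held 0 Mpo UMIs. Those higher were Elane, Mpo, Prtn3, Ctsg and Ltf in both, with Camp in DU101. The primary granule genes were again at trace levels. In the cluster's cells past the secondary gate alone Elane was at 0.297, 0.396 and 0.0488 UMIs per cell, near the T-like values above.

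Transcription factors of the programme followed the stages in a like manner in all libraries. Cebpa, needed for the step into the granulocyte line, was at 40.4 CPM in DU101, 56.1 in DU102 and 56.1 in control past the primary gate alone, at 19.4, 26.6 and 21.0 past both gates and at 3.24, 3.23 and 3.81 past the secondary gate alone. Cebpe, needed for secondary granule genes, was highest past both gates, at 535, 501.5 and 477 CPM, and fell to 436, 356 and 304 past the secondary gate alone and 11.9, 11.9 and 10.2 past neither. Gfi1, a repressor needed for neutrophil maturation, was at 109.7, 114 and 73.5 CPM past the primary gate alone, 62.6, 66.7 and 59.4 past both gates and 11.5, 11.4 and 10.6 past the secondary gate alone. The order of the stages was the same for each factor in all 3 libraries.

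Inhibitors of the granule proteases had stages of their own. Serpinb1a, an inhibitor of elastase, proteinase 3 and cathepsin G, was highest past both gates, at 1295 CPM in DU101 and 1128 in DU102, against 1411 in control, and at 29.9, 27.3 and 15.9 past neither gate. Slpi, a secreted inhibitor of elastase and cathepsin G, was highest past neither gate, at 1748, 1897 and 1721 CPM, with 515, 627 and 727 past the secondary gate alone. Timp1, an inhibitor of metalloproteases, had 0 UMIs in all gated stages and 1, 1 and 2 UMIs past neither gate. The stefin Stfa2, an inhibitor of cysteine cathepsins, was at 42.0 CPM in DU101 and 15.7 in DU102, against 238 in control, past the secondary gate alone, 0.177 (0.154 to 0.203) and 0.0660 times control (0.0558 to 0.0777).

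Other gene lists of neutrophil maturation were counted in the stage past the secondary gate alone, where the median log2 ratio of all genes was -0.10 in DU101 and -0.20 in DU102 and 8.87% and 13.4% of all genes were lower. The lists were drawn up with results of these data known. Of 9 measured genes of tumour-type neutrophils 8 were lower in each treated library, with a median of -0.94 and -1.18. The stage differed in its clusters, since the Cxcl2 cluster gave 12 cells of it in DU101 and 9 in DU102, against 29 in control, and the part of this make-up in the list's values was not tested. The neutrophil-attracting chemokine Cxcl2 was at 1200.4 CPM in DU101 and 1241 in DU102, against 2985 in control (0.402; 0.390 to 0.415, and 0.416; 0.404 to 0.428), and the chemokine Ccl4 at 28.5 in DU102, against 110.1 (0.259; 0.220 to 0.305). Of 8 genes of mature blood-type neutrophils 3 were lower in DU101 and 2 in DU102, among them the chemokine Ccl6 at 74.3 and 50.6 CPM, against 178 in control. Of 8 regulators 1 was lower in both, Cebpb, at 787 and 965 against 1758 CPM (0.448; 0.431 to 0.466, and 0.549; 0.530 to 0.569).

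Of 13 other secondary granule genes 2 were higher and 3 lower in DU101, and 2 higher and 2 lower in DU102, with median log2 ratios of 0.02 and 0.19. The ficolin Fcnb was at 539 CPM in DU101 and 387 in DU102, against 249.8 in control (2.16; 1.98 to 2.36, and 1.55; 1.42 to 1.69). Lysozyme Lyz2 was at 8972 and 11330.5 CPM, against 5389 (1.67; 1.63 to 1.70, and 2.103; 2.06 to 2.14). The chitinase-like Chil3 (0.548 and 0.569 times control) and olfactomedin Olfm4 (0.497 and 0.264 times) were lower in both. Of 7 other primary granule and early genes 1 was lower in each, Srgn, the core protein of granule proteoglycan, at 571 and 601 against 1062 CPM. Of 8 other tertiary granule and secretory vesicle genes 1 was lower in each, the metal transporter Slc11a1, at 13.3 and 15.5 against 27.5 CPM. None of 4 S100 genes was called, 1 of 10 cell cycle genes was higher in DU101 (Stmn1) and 1 lower in DU102 (Tubb5), and of 6 protease inhibitors 1 was higher and 1 lower in DU101 and 2 were lower in DU102.

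Outside the neutrophil lineage, granule RNA was found at low levels in T-like cells, more in the treated libraries than in control. Among T-like cells past neither gate Elane averaged 0.25 UMIs per cell in DU101 (0.234 to 0.267) and 0.416 in DU102 (0.391 to 0.441), against 0.0578 in control (0.0469 to 0.0705). Camp averaged 0.395, 0.752 and 0.134 UMIs per cell in the same order. At least 1 UMI of any of the 10 genes was found in 79.1% of all T-like cells in DU101 and 93.3% in DU102, against 40.8% in control. With each cell thinned to 1000 UMIs, in the 3673 DU101, 2568 DU102 and 1658 control cells that deep, the shares were 36.5%, 50.2% and 9.65%.

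The Elane level per cell was much alike in unrelated cell types of a library. Over T-like, NK-like, B-like, pDC-like (plasmacytoid dendritic), Kupffer-like, macrophage-like and patrolling monocyte-like cells past neither gate, Elane ranged from 0.212 to 0.25 UMIs per cell in DU101 and from 0.316 to 0.448 in DU102, against 0.0395 to 0.0710 in control. The 10 genes together ranged from 1.48 to 2.35 UMIs per cell in DU101, from 2.61 to 4.23 in DU102 and from 0.480 to 1.09 in control. Lcn2 and Mmp8 varied more, the highest type having 2.90, 2.15 and 8.22 times the Lcn2 UMIs per cell of the lowest in DU101, DU102 and control, and 13.5, 15.9 and 35.2 times the Mmp8 UMIs. None of these types is known for making Elane, and whether the UMIs were made in these cells or came from free RNA was not tested. Per cell, the ranges of DU101 and DU102 for Elane and for the 10 genes together lay above that of control. How many of all genes do so was not counted. As CPM, Elane varied more across these types, with the highest 3.67 (DU101), 4.15 (DU102) and 4.58 (control) times the lowest.

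In T-like cells over control 8 of 10 genes were higher in DU101 (3.31% of all genes were) and 9 of 10 in DU102 (3.53%). The median log2 ratio of the 10 was 2.16 and 2.89, beside -0.02 and 0.05 over all genes. It was 2.105 and 2.89 with only Y-positive, Xist-negative control cells and all treated cells. Ctsg was at 39.8 CPM in DU101, against 4.13 in control (9.64; 7.10 to 13.4), and at 38.5 in DU102 (9.32; 6.85 to 12.98). Mmp9 was not called in either, at 7.26 and 7.75 CPM against 6.29 (1.15; 0.853 to 1.58, and 1.23; 0.903 to 1.70), nor was Mmp8 in DU101, with 25 UMIs against 8. The make-up of the RNA was not that of the library: the 4 primary granule genes had 0.871 UMIs for each UMI of the 4 secondary ones in T-like cells of DU101 (0.831 to 0.912), 0.649 in DU102 (0.621 to 0.677) and 0.502 in control (0.437 to 0.577), beside 0.223, 0.194 and 0.224 over each whole library.

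**Figure D5:**
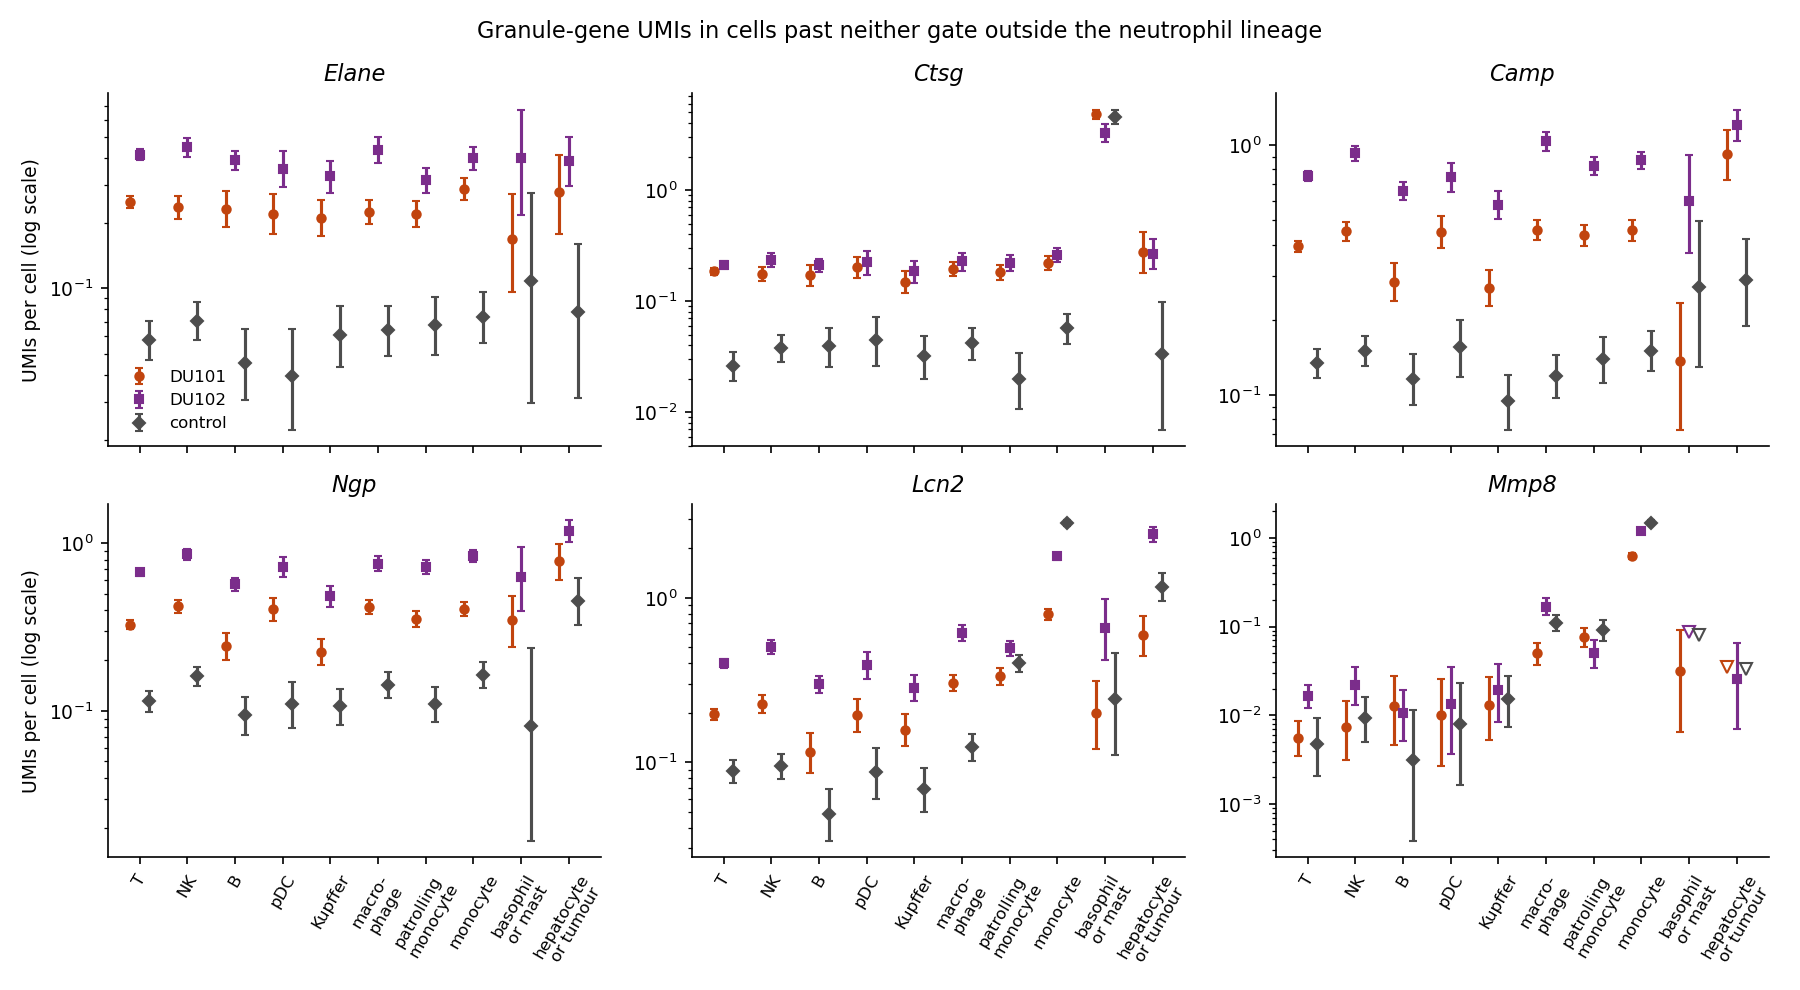
UMIs per cell (log axes) of 6 granule genes in cells past neither gate of 10 cell types outside the neutrophil lineage, in DU101, DU102 and control, with exact Poisson 95% intervals; open triangles mark the 3-count floor where no UMI was found. Elane is nearly level across types, at 0.25 in DU101 T-like and 0.0578 in control T-like cells, whereas Ctsg stands out in basophil or mast cell-like cells (4.81, 3.29 and 4.57) and Mmp8 in monocyte-like cells (0.622, 1.19 and 1.48).

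Some cell types outside the lineage held far more granule RNA than this level. A dividing monocyte-like cluster, led by F13a1, Stmn1 and Ly6c2 and with 199 DU101, 152 DU102 and 72 control cells, passed the primary gate in 69.3%, 75.0% and 69.4% of cells. It had 38.0 (DU101), 55.2 (DU102) and 32.5 (control) Elane UMIs, 55.6, 81.3 and 52.1 Prtn3 UMIs and 27.9, 38.7 and 30.9 Ctsg UMIs per cell, but 0.809, 2.00 and 0.306 Camp UMIs. Its Lcn2 stood at 3.62, 4.38 and 10.5 UMIs per cell, so Camp was low beside primary granule RNA in each library while Lcn2 was not absent. Monocyte-like cells made up 147 of 258 gated cells outside the lineage in DU101, 126 of 205 in DU102 and 55 of 62 in control, and gated cells were 2.19%, 2.30% and 0.704% of all cells outside it.

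The larger monocyte-like cluster, led by Lyz2, Fn1 and F13a1, had Prtn3 at 0.824 UMIs per cell in DU101, 0.946 in DU102 and 0.866 in control, while its Elane was at 0.274, 0.436 and 0.124. Its Lcn2 stood at 0.747 and 1.82, against 2.87 in control, and its Mmp8 at 0.580 and 1.14, against 1.49. Over all monocyte-like cells, 7 genes were higher and 3 lower in DU101 than in control (7.97% and 5.18% of all genes), and 7 higher and 2 lower in DU102 (7.95% and 3.93%). Those lower in both were Lcn2, at 149 CPM in DU101 and 205 in DU102, against 351 in control (0.4245; 0.398 to 0.453, and 0.584; 0.550 to 0.618), and Mmp9, at 2.27 and 4.94 against 8.30 (0.274; 0.160 to 0.452, and 0.595; 0.4004 to 0.876). The Mmp9 difference rests on 1 control cell, which gave 81.2% of the 69 control UMIs, and Mmp9 was found in 1.86% of DU101 and 4.44% of DU102 cells, against 1.09% of control cells. Mmp8 was at 73.8 and 106 CPM, against 152 (0.485; 0.441 to 0.532, and 0.697; 0.641 to 0.758), lower by size in DU101 alone. Xist was found in 59.9% of the larger cluster's control cells and in at most 0.147% of its treated ones, and the part of sex in these differences was not tested.

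Basophil or mast cell-like cells, where mast cells are known to hold cathepsin G, had 4.81 Ctsg UMIs per cell in DU101 (95 cells), 3.29 in DU102 (35 cells) and 4.57 in control (37 cells) past neither gate. A few cells carried much of it, since 1 cell gave 49.6% of the DU102 and 36.1% of the control UMIs. Hepatocyte or tumour-like cells past neither gate had 0.593 Lcn2 UMIs per cell in DU101 and 2.43 in DU102, against 1.17 in control, with 53.8% of the DU102 and 41.9% of the control UMIs in 1 cell each. Their Prtn3 was at 1.17, 1.197 and 1.39 UMIs per cell, so control was not the lowest, while their Camp was at 0.919, 1.204 and 0.289.

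Of all UMIs of a gene in kept cells, the neutrophil lineage held 98.2% of Camp in DU101 and 98.3% in DU102, against 98.8% in control, and 88.0%, 89.5% and 87.9% of Elane. For Mmp8 it held 85.6%, 90.9% and 71.4%, with 9.50%, 6.57% and 24.2% in monocyte-like cells. Over the whole lineage, without regard to stage, 7 of 10 genes were higher and 1 lower in DU101 than in control (8.76% and 18.5% of all genes) and 6 were higher in DU102 (6.90%). Mmp8 was the lower gene, at 0.665 times control. These ratios mix the change in stage shares with the levels within stages.

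The genes whose levels were most like the summed Elane, Mpo and Prtn3 over 52 sums of cells by stage or class and library were Ms4a3 (Pearson r 0.92), Dmkn (0.90), Dio2 (0.86), Plppr3 (0.80) and Far2 (0.79), out of 12966 genes ranked on log2(CPM + 1); Ctsg, which the gates did not use, reached 0.96 and Camp 0.48. For summed Ngp, Camp and Ltf they were Itgb2l (0.93), S100a9 (0.90), S100a8 (0.89), Olfml2b (0.88) and 4930438A08Rik (0.88), with Lcn2 at 0.90. The sums share libraries and depth, and the stages among them were sorted by the same gate genes, so these values are descriptions. Ms4a3, S100a8 and S100a9 were also among the markers used to name clusters.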

How the data were processed

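The deposited files hold raw UMI counts per gene and droplet. Per the file headers, the authors' matrices came from Cell Ranger 6.0.0; version 2.1.1 and the build mm10 stand in the submitters' processing notes, and no annotation release was stated. Droplets entered with 200 genes or more and a mitochondrial share of UMIs up to 10%, and doublets called by Scrublet were removed (470 DU101, 257 DU102 and 284 control droplets). Counts were scaled to 10000 per cell, log-transformed and clustered with scanpy 1.11.5 (2000 variable genes without the 10 granule genes, 30 components, 15 neighbours, Leiden resolution 1), and clusters were named from 19 marker sets. Clusters 12 and 21 stayed unnamed. Gates used raw UMIs. UMIs were summed by library and stage or cell type and turned into CPM; ratios carry exact conditional Poisson intervals and shares exact Clopper-Pearson intervals (scipy 1.17.1), at 95%, covering counting error only. The calls were tested on simulated data with counting error only. Such data hold no spread between cells or libraries, so they cannot show how often that spread yields a call. The granule genes, lists, gates and motifs were chosen with earlier results of these data known. Named were all 10 granule genes, up to 3 genes per list with the largest log2 ratio and at least 30 UMIs, Cebpa, Cebpe, Gfi1, Serpinb1a, Slpi and Timp1, and the 5 genes most like each gate sum. Alternatives covered cell filters, doublets, clustering, gates, scaling, the calling limits and sex of control cells. The authors' table of fold changes by cluster was not used, as no map of cells to its clusters was at hand.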

Additional observations from a re-analysis of the deposited data

How the results depend on the processing

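No paired analysis was possible because each group is a single library and all 3 carry the same replicate number, and for the same reason no replicate could be left out. The share of lineage cells past either gate gave a log2 ratio to control of 1.63 in DU101 and 1.48 in DU102, and was higher than control under every alternative run (0.84 to 1.76 in DU101 and 0.70 to 2.13 in DU102). The values that moved were those with only Y-positive, Xist-negative control cells and all treated cells, 0.84 (0.59 to 1.10) in DU101 and 0.70 (0.45 to 0.96) in DU102, and that with the gates applied to all kept cells, 2.13 (1.96 to 2.31) in DU102. Past the secondary gate alone, the count of granule genes higher or lower in DU101 was 5 in place of 3 with gates at 5 UMIs and 5 with cells weighted alike; the cause was not tested. Counts past neither gate stayed between 7 and 8 in DU101 and between 7 and 10 in DU102. The median log2 ratio of the 10 genes in T-like cells stayed between 2.06 and 2.18 in DU101 and between 2.76 and 2.94 in DU102. Thinned to 1000 UMIs, the share of T-like cells with any granule UMI was 36.5% in DU101 and 50.2% in DU102, against 9.65% in control. Of 640 values of single genes within stages, 627 kept their sign and none reversed a call. Depth limits Mmp8 and Mmp9 past the primary gate alone and past both gates, and the 10 and 47 control cells of those stages.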
